A study of Homo sapiens with 2 samples.

Results

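The 10 circadian clock genes examined here are BHLHE40, BHLHE41, PER1, PER2, PER3, CRY1, CRY2, ARNTL, NR1D1 and NR1D2, chosen by gene symbol, and all 10 were found among the 25343 gene entries of both libraries. The RNA source was Huh7, an established human cell line from a well differentiated hepatocellular carcinoma. Cells were kept for 6 days in low glucose medium (0.45 g/L) or in high glucose medium (4.5 g/L), with 500000 cells seeded per well in both cases and only live cells carried on at each passage. Each medium is represented by 1 library, so no difference below has a replicate check and none could be tested. The values are TPM, a share of transcripts scaled to 1000000 per library and adjusted for length. Neither the clock time of harvest nor any synchronisation of the cells is stated in the labels. TPM is an average over the culture, so fewer cells carrying a transcript and less of it per cell cannot be told apart.

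The circadian clock is a feedback loop of transcription factors found in most cells, and in liver it drives daily rhythms of glucose, lipid and drug metabolism. ARNTL (also called BMAL1) pairs with CLOCK or NPAS2, binds E-boxes and switches on the PER, CRY, NR1D and BHLHE40/41 genes, whose products then hold the loop back. PER and CRY proteins block the ARNTL pair directly, BHLHE40 and BHLHE41 (DEC1 and DEC2) compete for E-boxes, and NR1D1 and NR1D2 (REV-ERB alpha and beta) repress ARNTL itself through elements they share with the activating ROR receptors.

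In low glucose the repressor genes BHLHE40 and BHLHE41 were 4.87 and 5.01 times as abundant as in high glucose, NR1D2 was 2.06 times as abundant, and PER1 and PER2 lay between 1.39 and 1.71 times. CRY1 and the activator ARNTL were nearly level. A gene entered the comparison with a mean of at least 1 TPM, and its difference was log2(TPM + 1) in low glucose minus that in high glucose, with a 2-fold rule at a difference of 1. Of the 10 genes, 9 had that mean and 1, PER3, did not; BHLHE41 reached it only through its low glucose value. Of these 9, 2 were at least 2-fold higher, against 3.65% of all 13745 genes compared, and 0 were at least 2-fold lower, against 1.1% of all genes. The other 7 were within 2-fold. All 9 lay above 0, where 54.6% of all genes compared did, but ARNTL and CRY1 dropped just below 0 (-0.02 and -0.03) when the libraries were scaled by the median of gene ratios. The median difference of the 9 was 0.46, beside 0.05 for all genes compared, whose middle 50% ran from -0.23 to 0.35. Without BHLHE40 and BHLHE41 the median of the remaining 7 was 0.27.

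**Figure D1:**
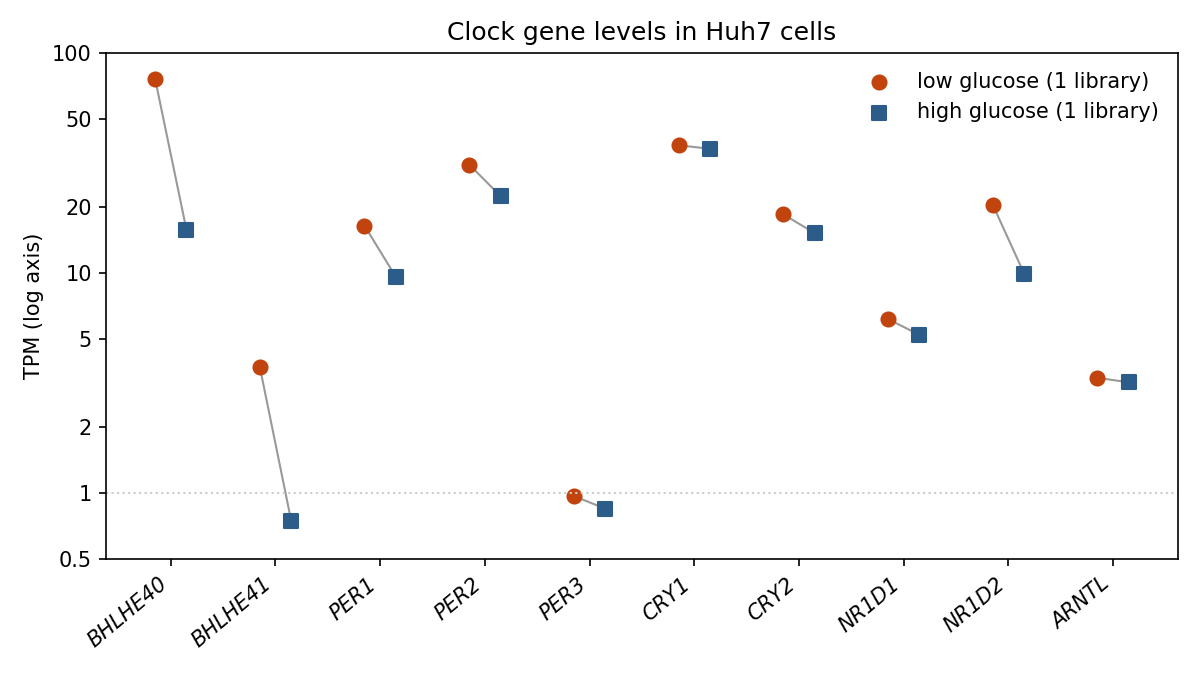
TPM of each of the 10 clock genes (log axis) in the low glucose library (circles) and the high glucose library (squares), 1 library per medium; the dotted line marks 1 TPM. BHLHE40 and BHLHE41 show the widest gaps between the media, while CRY1 and ARNTL are close to level.

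The DEC repressors differed most. BHLHE40 had 76.6 TPM in low glucose and 15.7 TPM in high glucose, a ratio of 4.87 and a log2 difference of 2.21. That difference ranked 49 among the 13745 genes compared, counted from the highest. BHLHE41, its scarcer paralog, had 3.76 TPM in low glucose and 0.75 TPM in high glucose, a ratio of 5.01 and a log2 difference of 1.44 (rank 155). BHLHE40 was 20.4 times as abundant as BHLHE41 in low glucose and 20.97 times in high glucose. The high glucose proportion divides by 0.75 TPM, whose counting error is unknown. The 2-fold call for BHLHE41 rests on low TPM and was lost with a pseudocount of 5 (0.61). BHLHE40 (chromosome 3, 5021097 to 5026865) and BHLHE41 (chromosome 12, 26272959 to 26278003) are placed here by the hg19 intervals of the files. Their promoter windows from RefSeq (GRCh38.p14, 250 bases before to 50 after the start site, in the direction of transcription) are shown because each holds 1 E-box, CACGTG, the element these proteins themselves bind. Capitals mark it.
BHLHE40, chr3:4979187-4979486, plus strand: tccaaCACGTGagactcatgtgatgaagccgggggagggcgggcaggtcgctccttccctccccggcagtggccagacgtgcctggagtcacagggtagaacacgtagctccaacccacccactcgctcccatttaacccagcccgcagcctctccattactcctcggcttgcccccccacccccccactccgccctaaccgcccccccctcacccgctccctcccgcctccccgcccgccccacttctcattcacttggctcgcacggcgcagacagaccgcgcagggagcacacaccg
BHLHE41, chr12:26124988-26125287, minus strand: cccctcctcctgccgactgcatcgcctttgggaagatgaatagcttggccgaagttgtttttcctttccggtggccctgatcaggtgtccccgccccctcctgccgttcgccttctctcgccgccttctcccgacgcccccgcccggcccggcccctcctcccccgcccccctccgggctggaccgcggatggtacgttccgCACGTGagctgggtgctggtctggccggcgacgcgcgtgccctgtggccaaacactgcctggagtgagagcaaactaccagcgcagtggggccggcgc

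The PER genes, whose proteins act with CRY proteins against the ARNTL pair, stayed within 2-fold. PER1, which is also known to respond quickly to glucocorticoids and cAMP, had 16.4 TPM in low glucose and 9.6 TPM in high glucose (ratio 1.71, log2 difference 0.72, rank 1172). PER2 had 31.1 TPM in low glucose and 22.4 TPM in high glucose (ratio 1.39, log2 difference 0.46). PER3 was scarce, with 0.97 TPM in low glucose and 0.85 TPM in high glucose, below the level compared. The order of the family was PER2, PER1, PER3 in both media, and PER2 was 1.89 times as abundant as PER1 in low glucose and 2.33 times in high glucose. The windows of PER1 and PER2 are shown because they differ in their elements. In capitals, PER1 holds the E-box and, on the other strand, the ROR core AGGTCA, while PER2 holds CACGTT, the E'-box known to drive its rhythm in mouse, and the D-box TTACGTAA.
PER1, chr17:8152355-8152654, minus strand: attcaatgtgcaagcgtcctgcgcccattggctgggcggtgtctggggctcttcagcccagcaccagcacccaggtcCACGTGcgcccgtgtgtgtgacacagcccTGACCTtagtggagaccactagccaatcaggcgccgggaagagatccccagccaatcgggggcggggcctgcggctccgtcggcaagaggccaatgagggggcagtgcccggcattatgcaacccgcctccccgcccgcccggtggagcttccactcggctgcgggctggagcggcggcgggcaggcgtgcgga
PER2, chr2:238288561-238288860, minus strand: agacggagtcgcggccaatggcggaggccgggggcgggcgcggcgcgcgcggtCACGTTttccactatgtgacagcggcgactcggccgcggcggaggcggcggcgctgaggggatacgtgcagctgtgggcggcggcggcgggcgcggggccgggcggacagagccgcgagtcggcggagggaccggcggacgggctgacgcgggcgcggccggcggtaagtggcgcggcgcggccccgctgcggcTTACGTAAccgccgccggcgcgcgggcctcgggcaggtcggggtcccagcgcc

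The cryptochromes, the strongest repressors of the ARNTL pair, stayed within 2-fold, and CRY1 was almost level. CRY1 had 38.1 TPM in low glucose and 36.7 TPM in high glucose, a log2 difference of 0.05 that ranked 6848. CRY2 had 18.5 TPM in low glucose and 15.2 TPM in high glucose, a log2 difference of 0.27. CRY1 was 2.06 times as abundant as CRY2 in low glucose and 2.42 times in high glucose.

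The REV-ERB genes encode haem-binding nuclear receptors that silence targets with the corepressor NCOR1 and the deacetylase HDAC3. NR1D2 had 20.5 TPM in low glucose and 9.95 TPM in high glucose. Its ratio was 2.06, while its log2(TPM + 1) difference of 0.97 (rank 541) fell just short of the 2-fold rule. It passed with a pseudocount of 0.1 (1.03) and as a plain ratio, an alternative added after the values were seen (1.04). NR1D1 had 6.18 TPM in low glucose and 5.24 TPM in high glucose, a log2 difference of 0.20. The lead of NR1D2 over NR1D1 was 3.31 times in low glucose and 1.90 times in high glucose. NR1D1 (chromosome 17, 38249037 to 38256978) shares 1084 bases with the listed interval of THRA, a thyroid hormone receptor gene transcribed from the opposite strand, and no source used here states whether the libraries keep strand. THRA had 10.5 TPM in low glucose and 13.1 TPM in high glucose. The effect of shared reads on NR1D1 was not tested. The window at the second listed start of NR1D2 is shown because it holds 2 E-boxes and, on the other strand, a D-box, in capitals.
NR1D2, chr3:23945871-23946170, plus strand: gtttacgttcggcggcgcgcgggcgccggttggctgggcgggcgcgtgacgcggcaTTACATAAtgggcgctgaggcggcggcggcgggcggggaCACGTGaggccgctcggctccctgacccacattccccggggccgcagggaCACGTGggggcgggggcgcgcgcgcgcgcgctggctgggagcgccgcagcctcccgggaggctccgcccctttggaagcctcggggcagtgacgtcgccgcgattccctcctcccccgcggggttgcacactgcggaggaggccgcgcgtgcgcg

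ARNTL, the only activator among the 10 genes, had 3.34 TPM in low glucose and 3.19 TPM in high glucose. Its log2 difference was 0.05, the same as the median of all genes compared. PER1 was 4.92 times as abundant as ARNTL in low glucose and 3.01 times in high glucose, NR1D2 6.13 times in low glucose and 3.12 times in high glucose, and BHLHE40 22.9 times in low glucose and 4.93 times in high glucose. The window of its first listed start is shown because the ROR core, in capitals, lies downstream of the start, in the region through which ROR and REV-ERB proteins are known to set the rhythm of ARNTL.
ARNTL, chr11:13277540-13277839, plus strand: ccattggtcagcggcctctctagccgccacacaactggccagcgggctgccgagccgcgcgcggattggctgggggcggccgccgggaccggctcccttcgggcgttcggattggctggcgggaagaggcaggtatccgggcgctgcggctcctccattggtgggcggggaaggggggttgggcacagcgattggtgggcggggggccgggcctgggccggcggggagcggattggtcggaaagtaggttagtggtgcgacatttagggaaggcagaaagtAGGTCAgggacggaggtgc

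**Figure D2:**
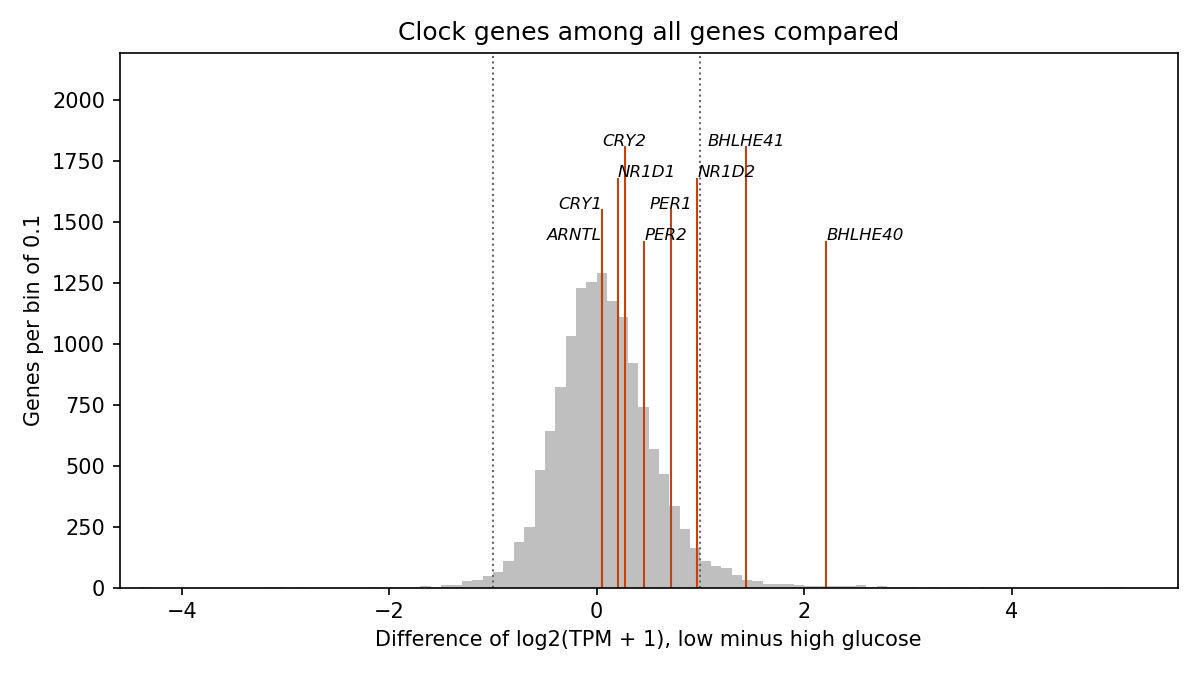
Number of genes (grey bars) by log2(TPM + 1) in low glucose minus that in high glucose, over the 13745 genes compared, with the 9 clock genes at the level compared as labelled lines and dotted lines at the 2-fold rule. BHLHE40 (2.21) and BHLHE41 (1.44) lie past the rule and NR1D2 (0.97) just inside it; CRY1 and ARNTL (both 0.05) lie at the centre.

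The order of abundance among the 10 genes differed at the top. In low glucose BHLHE40 came first, at 2.01 times the level of CRY1, followed by CRY1, PER2, NR1D2 and CRY2. In high glucose CRY1 came first, then PER2, BHLHE40, CRY2 and NR1D2, with BHLHE40 at 0.43 times the level of CRY1. BHLHE40 supplied 35.5% of the summed TPM of the 10 genes in low glucose and 13.2% in high glucose. The sum was 215 TPM in low glucose and 119.6 TPM in high glucose, a ratio of 1.80. Without BHLHE40 it was 139 TPM in low glucose and 104 TPM in high glucose, a ratio of 1.34. At the low end, BHLHE41, ARNTL and PER3 were the 3 scarcest in both media.

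Promoter elements were searched on both strands in all 14 windows that RefSeq gives for the 10 genes, and ARNTL was matched through its current symbol BMAL1. The letters were CACGTG for the E-box, CACGTT for the E'-box, TTATGTAA or TTACGTAA for the D-box, AGGTCA for the ROR core and TGACGTCA for the cAMP response element (CRE). E-box and E'-box share their first 5 letters but cannot match at the same place on a strand. The E-box was in 4 of the 14 windows, those of BHLHE40, BHLHE41 and PER1 and the second of NR1D2. In all 35116 windows of the table, 7.26% hold an E-box. These 4 genes have the highest differences of the 10, an arrangement noticed after the values were seen. Counted by gene, 1342 of the 10777 genes compared with a window hold an E-box in at least 1 window. The E'-box was in 4 windows (PER2, CRY1, CRY2 and NR1D1), where 5.34% of all windows hold it, and these genes had differences between 0.05 and 0.46. A D-box was in 3 windows (PER2, PER3 and NR1D2), against 1.01% of all windows. The ROR core was in 4 windows (PER1, ARNTL and both of CRY2), against 13.8% of all windows. The CRE was in 0 of the 14 windows, against 1.85% of all windows, and no match says only that these letters are not in these 300 bases.

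Across all genes an E-box went with a small difference. Of the genes compared, 10777 had a window in the table. The 1342 of them with an E-box had a median difference of 0.06, and 4.17% were at least 2-fold higher. For the 9435 without one the median was 0.03 and 3.16% were at least 2-fold higher. Of the 10 other clock factors, 2 had an E-box. CIART, with 3 E-boxes, had 0.72 TPM in low glucose and 0.50 TPM in high glucose. TEF, with 1 in each of its 2 windows, had 11.2 TPM in low glucose and 10.1 TPM in high glucose. The rest had none, among them NFIL3 (difference 1.12) and RORA (1.03), which met the 2-fold rule, and DBP (-0.55).

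**Figure D3:**
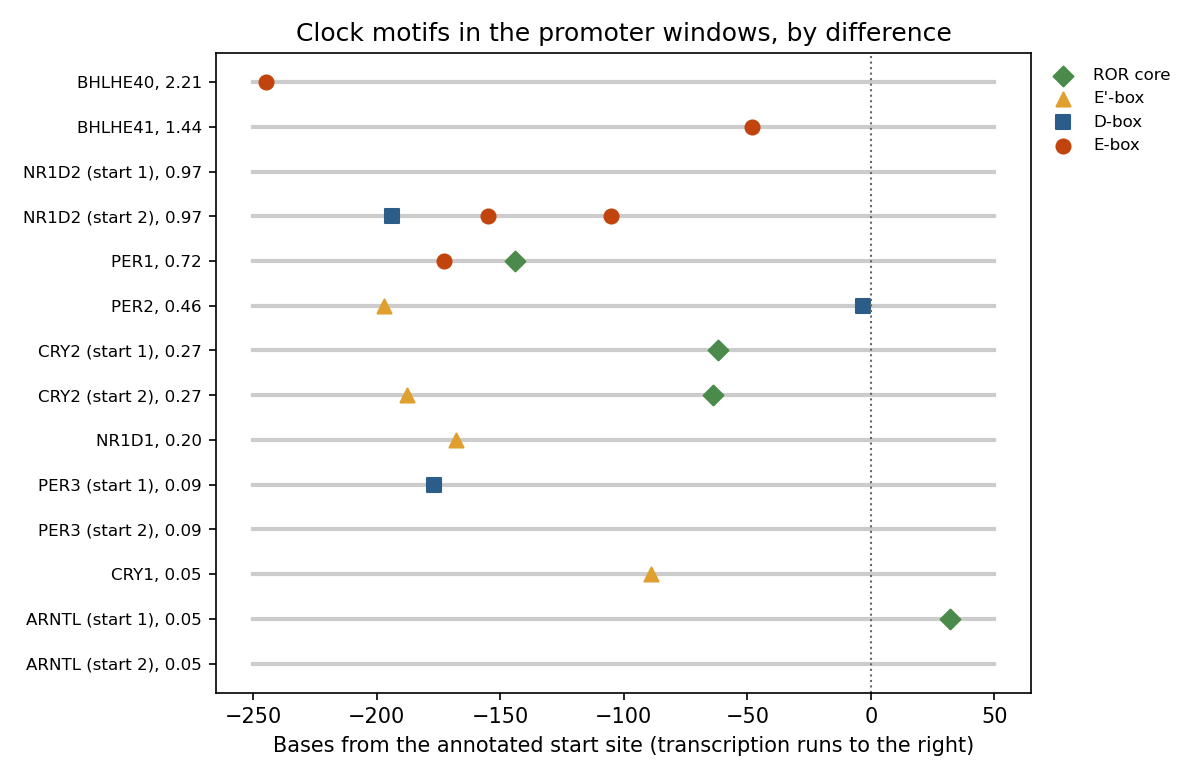
Position of each element (first base, in bases from the annotated start site) in the 14 promoter windows of the 10 clock genes, 1 line per window, ordered by the log2 difference printed beside the gene. E-boxes (circles) lie in windows of the 4 uppermost genes, from 245 bases before the start in BHLHE40 to 48 bases before it in BHLHE41.

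Set against the activators of the E-box loop, the repressors were higher in low glucose. The other activators are CLOCK, its close relative NPAS2, and ARNTL2, a paralog of ARNTL. CLOCK had 7.07 TPM in low glucose and 6.65 TPM in high glucose. NPAS2 had 20.9 TPM in low glucose and 28.5 TPM in high glucose, a log2 difference of -0.43, and ARNTL2 had 11.5 TPM in low glucose and 13.8 TPM in high glucose, a difference of -0.24. In each of these pairs the more abundant gene had less TPM in low glucose than in high glucose, with NPAS2 at 2.95 times CLOCK in low glucose and 4.28 times in high glucose, and ARNTL2 at 3.45 times ARNTL in low glucose and 4.31 times in high glucose. None of the 4 met the 2-fold rule.

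The 8 E-box repressors (PER1 to PER3, CRY1, CRY2, BHLHE40, BHLHE41 and CIART) summed to 186 TPM in low glucose and 102 TPM in high glucose, a ratio of 1.83. The 4 activators summed to 42.8 TPM in low glucose and 52.1 TPM in high glucose, a ratio of 0.82. Repressor transcripts outnumbered activator transcripts 4.35 to 1 in low glucose and 1.95 to 1 in high glucose, a log2 change of 1.16. BHLHE40 carried much of this change. Without it the proportions were 2.56 in low glucose and 1.65 in high glucose, a log2 change of 0.63. For the PER and CRY genes alone they were 2.46 in low glucose and 1.63 in high glucose. Within the 10 genes, where ARNTL is the only activator, they were 55.5 in low glucose and 31.7 in high glucose, a log2 change of 0.81.

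**Figure D4:**
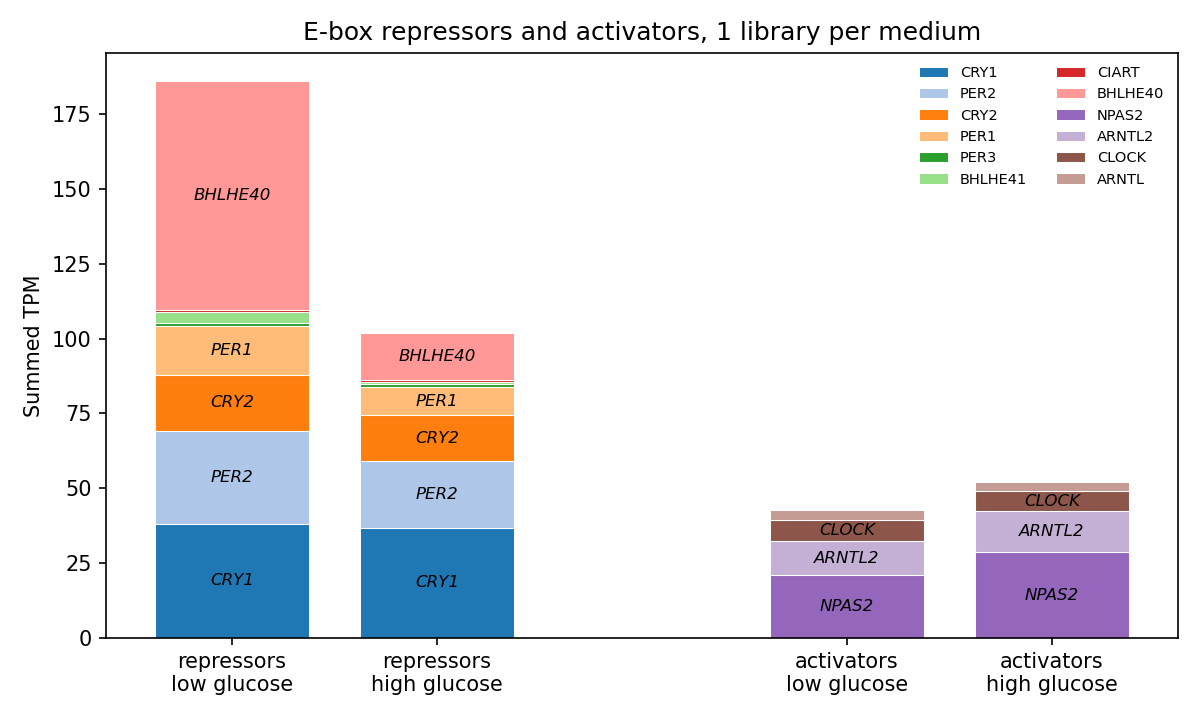
Summed TPM of 8 E-box repressors (left pair of bars) and 4 E-box activators (right pair), low glucose left of high glucose in each pair, 1 library per bar, with each segment 1 gene. Repressors reach 186 TPM in low glucose and 102 TPM in high glucose, with BHLHE40 the segment that differs most, and activators 42.8 TPM in low glucose and 52.1 TPM in high glucose.

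The arm that controls ARNTL held a further difference. RORA, the receptor that activates ARNTL through the ROR element, had 2.37 TPM in low glucose and 0.65 TPM in high glucose, a log2 difference of 1.03 that fell short of the rule under median-of-ratios (0.97) and upper-quartile scaling (0.999) and with a pseudocount of 5 (0.38). Its relative RORB had 0.03 TPM in low glucose and 0.02 TPM in high glucose, below the level compared. NR1D1 and NR1D2 together had 26.7 TPM in low glucose and 15.2 TPM in high glucose, so they exceeded the summed RORA and RORB transcripts 11.1 to 1 in low glucose and 22.7 to 1 in high glucose. This proportion moved the opposite way to that of the E-box arm, and it rests on RORA levels of a few TPM at most, with RORA at 1 TPM or more only in low glucose.

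Among the D-box factors, NFIL3 (E4BP4), the repressor that competes for D-boxes, had 149 TPM in low glucose and 68.2 TPM in high glucose, a log2 difference of 1.12. The activators DBP, TEF and HLF did not share it. DBP, a classic direct target of ARNTL and CLOCK, had 2.64 TPM in low glucose and 4.32 TPM in high glucose (difference -0.55). HLF had 13.4 TPM in low glucose and 10.4 TPM in high glucose. NFIL3 exceeded the summed activators 5.46 to 1 in low glucose and 2.74 to 1 in high glucose. Outside the 10 genes, 8 E-box, RORE and D-box factors were at the level compared. Of these 8, 2 (RORA and NFIL3) met the 2-fold rule as higher, against 3.65% of all genes compared. As lower, 0 of the 8 met it, against 1.1% of all genes. Their median difference was 0.11, beside 0.05 for all genes compared. RORA reached the level compared only through its low glucose value. Its call was lost under median-of-ratios and upper-quartile scaling and with a pseudocount of 5.

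None of the listed genes for kinases, ubiquitin ligases and cofactors that act on clock proteins met the 2-fold rule, which 3.65% of all genes compared met as higher and 1.1% as lower. Of 10 kinase genes, 0 were past 2-fold in either direction, with a median of 0.07 and a range from -0.33 to 0.37, and their most abundant were CSNK2B (248 TPM in low glucose, 288 TPM in high glucose) and CSNK2A1 (172 TPM in low glucose, 182 TPM in high glucose), subunits of casein kinase 2, which phosphorylates ARNTL and PER2. Of 7 genes of ubiquitin ligases and the deubiquitinase USP2, 0 were past 2-fold, with a median of 0.21 and a range from -0.25 to 0.79. The upper end is FBXL21, with 36.1 TPM in low glucose and 20.5 TPM in high glucose, a larger difference than that of PER1 (0.72). FBXL21 is known in mouse as a ligase for CRY proteins, and whether the human transcript encodes a working ligase was not examined. USP2 had a difference of 0.45. HUWE1, a ligase for NR1D1, had 85.0 TPM in low glucose and 73.4 TPM in high glucose, and FBXW11, a ligase for PER proteins, had 36.5 TPM in low glucose and 38.6 TPM in high glucose. Of 9 cofactor genes, 0 were past 2-fold, with a median of 0.04 and a range from -0.56 to 0.47. HDAC3, the deacetylase that works with NCOR1, had 49.1 TPM in low glucose and 73.2 TPM in high glucose, and the NAD-dependent deacetylase gene SIRT1 had 21.2 TPM in low glucose and 15.02 TPM in high glucose. FBXL21, USP2, HDAC3 and SIRT1 were named after their values were seen. SFPQ, a PER complex partner, had 262 TPM in low glucose and 371 TPM in high glucose, and NONO, another, had 137 TPM in low glucose and 158 TPM in high glucose.

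Of 10 genes known to cycle in liver under the clock, 9 were at the level compared. Of these, 0 were past 2-fold in either direction, against 3.65% of all genes compared higher and 1.1% lower. The median difference of these 9 was 0.62, beside 0.05 for all genes compared. Of the 9, 7 lay above 0, as did 54.6% of all genes compared. No test of this list was possible with 1 library per medium. POR, the electron donor of cytochrome P450 enzymes, had 247 TPM in low glucose and 160.3 TPM in high glucose, and ALAS1, the first enzyme of haem synthesis, had 101 TPM in low glucose and 94.1 TPM in high glucose. The NAD salvage gene NAMPT had 80.9 TPM in low glucose and 48.2 TPM in high glucose. The differences below 0 were those of LPIN1 (-0.22), a phosphatidate phosphatase gene, and the nuclear receptor gene PPARA (-0.09). These 3 were named after their values were seen. CYP7A1, which starts bile acid synthesis, was listed at 0 TPM in both media.

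For signals that are known to act on PER1 and the DEC genes, lists of their other targets were examined. The lists were chosen with earlier results of these data known. Over all genes compared, 3.65% were at least 2-fold higher, 1.1% at least 2-fold lower and 54.6% above 0, with a median of 0.05. The factor of the HIF list is known to switch on BHLHE40 and BHLHE41 in hypoxia. On that list 4 of 9 genes compared were at least 2-fold higher, 5 were within 2-fold and 0 were lower, with a median of 0.93. CA9, also listed, had 0.13 TPM in low glucose and 0.17 TPM in high glucose, below the level compared. It was named after its values were seen. Of the 9, 8 lay above 0. SLC2A1, the glucose transporter GLUT1, had 99.0 TPM in low glucose and 31.4 TPM in high glucose, and the angiogenic factor gene VEGFA had 197 TPM in low glucose and 67.4 TPM in high glucose, while BNIP3 (197 TPM in low glucose, 188 TPM in high glucose) and NDRG1 (149 TPM in low glucose, 158 TPM in high glucose) were within 2-fold. On the cAMP list 3 of 6 were at least 2-fold higher and 0 lower, with a median of 0.99. Of the 6, 4 lay above 0 and 2 below. FOS had 16.5 TPM in low glucose and 1.92 TPM in high glucose, NR4A1 had 19.3 TPM in low glucose and 7.17 TPM in high glucose, SIK1 had 70.8 TPM in low glucose and 33.0 TPM in high glucose, and CREM had 26.6 TPM in low glucose and 27.7 TPM in high glucose. On the glucocorticoid list 2 of 8 were at least 2-fold higher and 0 lower, with a median of 0.15 and a range from -0.54 to 1.75. KLF9 is both on this list and on that of genes known to cycle in liver. Of the 8, 4 lay above 0 and 4 below. DUSP1, a MAP kinase phosphatase, had 166 TPM in low glucose and 48.9 TPM in high glucose, TAT, the tyrosine aminotransferase, had 6.34 TPM in low glucose and 2.09 TPM in high glucose, and the metallothionein gene MT2A had 845 TPM in low glucose and 1127 TPM in high glucose. With a pseudocount of 5 the 2-fold calls of TAT (0.68), SIK1 (0.996) and NR4A1 (0.998) were lost. SIK1 also lost its call under median-of-ratios scaling (0.99). The part of the HIF, cAMP and glucocorticoid signals in the levels of the clock genes was not tested.

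**Figure D5:**
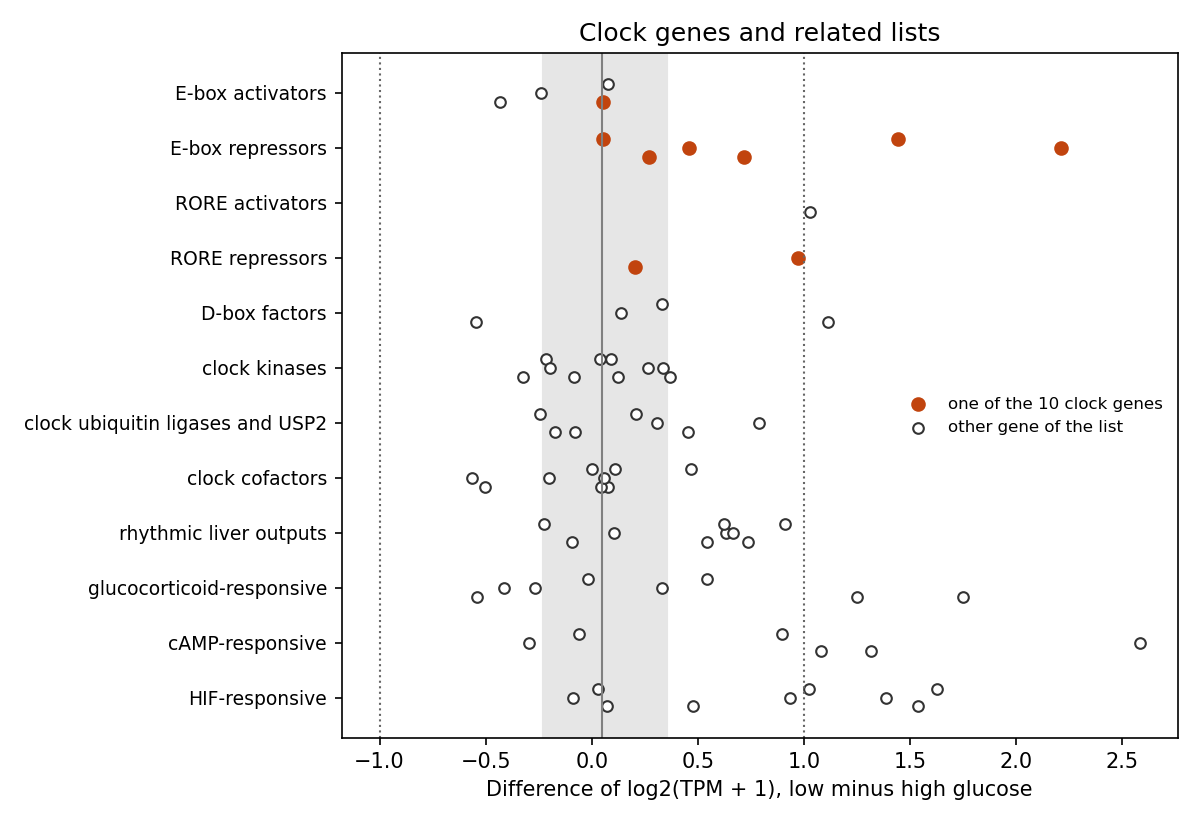
The log2(TPM + 1) in low glucose minus that in high glucose for each gene at the level compared in 12 lists (filled circles, the clock genes described here; open circles, other genes of the list); the grey band spans -0.23 to 0.35, the middle 50% of all genes compared, the solid line their median of 0.05 and the dotted lines the 2-fold rule. E-box repressors reach 2.21 (BHLHE40), whereas E-box activators lie between -0.43 and 0.08.

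The genes nearest to BHLHE40 in level, by Euclidean distance of log2(TPM + 1) over the 2 libraries, were SLC1A4 (distance 0.09), BEX2 (0.22) and SESN2 (0.23). SLC1A4, a transporter of neutral amino acids, had 72.3 TPM in low glucose and 16.1 TPM in high glucose. BEX2 had 66.3 TPM in low glucose and 16.7 TPM in high glucose. SESN2, which encodes a stress-induced sestrin, had 80.3 TPM in low glucose and 13.3 TPM in high glucose. With 2 libraries this likeness covers 2 values per gene. No clock gene at the level compared had a negative difference, so none was matched on that side.

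The hepatocyte and hepatoma character of the cells was plain in both libraries. The 8 hepatocyte and hepatoma markers ranged from 154 to 16441 TPM in low glucose and from 211 to 20859 TPM in high glucose. The 10 markers of leukocytes, endothelial cells and fibroblasts or stellate cells ranged from 0.05 to 8.82 TPM in low glucose and from 0.05 to 8.12 TPM in high glucose, summing per type to between 2.19 and 13.1 TPM in low glucose and between 2.14 and 9.54 TPM in high glucose, and none was at 0 in both. Of all entries, 18036 were above 0 in low glucose and 17994 in high glucose. The listed intervals of 14 other entries also cover PER1, PER3, CRY1, CRY2, ARNTL or BHLHE41. All but MIR6883 in PER1 are merged copies whose intervals span at least 63298805 bases. They were listed at 0 except for 6 of those over PER3, of which LOC100133331, the highest, had 97.0 TPM in low glucose and 56.2 TPM in high glucose.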

How the data were processed

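Transcript levels of Huh7 cells were measured by RNA sequencing, with 1 library per medium, and samples were grouped by their treatment label. The deposited values are TPM per gene symbol, per the file headers, with 2 decimals. The submitters' processing notes name cutadapt, RSEM 1.2.21 and hg19, and no source used here gives the aligner, annotation or strand setting. RSEM divides reads that match several genes. TPM keeps no read depth, so the depth was not determined and counting error, largest for genes of a few TPM, is unknown.

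Differences were taken on the log2(TPM + 1) scale, which understates those of scarce genes, for genes with a mean of at least 1 TPM. All genes were processed together and 2-fold calls counted over them. With 1 library per group no test was run. The code was tested on simulated data. The members, lists and alternatives were chosen with earlier results of these data known. Named genes were the 10 members, all E-box, RORE and D-box factors except 1 that is not reported here, genes overlapping a member, the 3 nearest to the most different member in each direction, and of each other list its 2 most abundant and up to 2 largest past 2-fold. Alternatives were 3 scalings, pseudocounts of 0.1 and 5, no filter, a mean of 10 TPM, thresholds of 1.5-fold and 3-fold and, added after seeing the data, the plain TPM ratio. Promoter windows came from RefSeq (GRCh38.p14), and no coordinates were converted. Python 3.11.15, pandas 2.3.3, numpy 2.4.6 and matplotlib 3.10.9 were used.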

Additional observations from a re-analysis of the deposited data

How the results depend on the processing

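The count of clock genes at least 2-fold higher (2 by the settings reported) was 1 with a pseudocount of 5, 1 among genes with a mean of at least 10 TPM, which leaves BHLHE41 out, 4 under a 1.5-fold rule (PER1 and NR1D2 join) and 1 under a 3-fold rule. It was 3 with a pseudocount of 0.1 and with the plain ratio. The count at least 2-fold lower was 0 under every alternative run. The median difference kept its direction, from 0.36 with no filter to 0.59 with a mean of at least 10 TPM. The proportion of E-box repressors to activators, a log2 change of 1.16, cannot change with scaling; it missed a 3-fold rule at 1.16 and a 2-fold rule without BHLHE40 (0.63) or within the 10 genes (0.81). Over 40 named genes and their alternatives, 368 of 392 values kept their direction and side of the rule, 8 lost a 2-fold call, 2 gained one, 7 past 2-fold missed the 3-fold rule, 3 within 2-fold met the 1.5-fold rule and 4 uncalled values changed sign or reached 0. The scalings moved the median of all genes to between -0.03 and 0.08. BHLHE40 ranged from 1.98 to 2.28 and BHLHE41 from 0.61 to 2.33. The number of genes at least 2-fold higher, 502, was 743 with a pseudocount of 0.1, 774 as a plain ratio, 234 with a pseudocount of 5, 293 with a mean of at least 10 TPM, 1786 at 1.5-fold and 119 at 3-fold. The number at least 2-fold lower, 151, was 222, 237, 79, 103, 835 and 22 under the same alternatives. No paired analysis was possible because each medium has 1 library. Levels of a few TPM (BHLHE41, RORA, ARNTL, PER3) carry an unknown counting error.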
